A study of Mus musculus with 6 samples.

Results

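The 35 genes described here encode the machinery that binds, activates, imports and oxidises fatty acids and that makes or uses ketone bodies. They were chosen by name from the 16906 protein-coding rows of a count table of mouse colon, and each had a row. The table holds 6 RNA sequencing libraries of colonic tissue from C57 mice labelled as wild type. There are 3 from animals under normal feeding and 3 from animals with colitis induced by trinitrobenzenesulfonic acid (TNBS), labelled as a model of inflammatory bowel disease. TNBS is a hapten that provokes an immune reaction in the colon wall, and it was placed into the colon through the anus at 5% w/v. The protocols give all animals as C57BL/6J males of 6 to 8 weeks and 20 to 22 g. Normal mice carry only a feeding label and no mock instillation, so the procedure and TNBS cannot be told apart. No day of sampling is given for either group in the sources used here, and nothing there says whether tissue of several animals was pooled.

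Fatty acids enter mitochondria as acyl-carnitines and are shortened by repeated rounds of dehydrogenation, hydration, a further dehydrogenation and thiolysis, each enzyme preferring certain chain lengths. Peroxisomes run a parallel spiral on very long and branched chains and pass the shortened products on. Colonocytes, the absorptive epithelial cells of the colon, are known for burning butyrate made by bacteria, and for making ketone bodies from the acetyl-CoA that results.

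Levels are given as CPM, counts relative to the library total, after TMM scaling, which corrects that total for a few dominant genes. Totals ran from 15185569 to 23380492 counts. The squared differences between libraries of 1 group were 36.5 to 167 times the variance from counting alone (chi-square per degree of freedom). All 12 epithelial and all 10 smooth muscle markers passed the filter on low counts. Of 13 small intestinal markers 9 passed, with summed levels of 586 to 628 CPM in normal and 517 to 606 CPM in TNBS colon, most of it Mgam. Lct and Apoa1 of that list were at 0 to 0.257 CPM, while Sis was at 0.174 to 1.86 CPM in normal colon and at 1.23, 3.30 and 15.5 CPM in TNBS replicates 1, 2 and 3. The TNBS libraries were not alike. Hoxb6, a gene of position along the gut, ran from 3.36 to 11.5 CPM in normal colon and was at 8.95, 79.3 and 80.6 CPM in TNBS replicates 1, 2 and 3. The other 9 tested position genes did not all follow it: Hoxb8 and Hoxb9 were also highest in TNBS replicates 2 and 3, while Hoxa13 was at 94.7 to 150.0 CPM in normal colon and at 108, 24.2 and 12.7 CPM in TNBS replicates 1, 2 and 3. In the same order, Y-linked transcripts stood at 0.697%, 103% and 38.2% of the normal mean, although all animals are labelled male. Genes of the mitochondrial genome held 0.563% to 0.951% of normal counts and, again in that order, 0.755%, 3.92% and 1.95% of TNBS counts. The members' calls are therefore also given with TNBS replicate 1 left out, and their shifts with it as the only TNBS library.

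Fabp2 and the synthetases Acsl1, Acsl3 and Acsl5 had lower means in TNBS colon and most enzymes of the oxidation spirals slightly higher ones, but no member passed edgeR's test. Of the 33 members tested, 23 had a higher and 10 a lower mean, where 49.4% of all tested genes had a lower one. Their median log2 fold change was 0.11, against 0.0073 over all 14126 genes tested. None passed edgeR's quasi-likelihood test at a Benjamini-Hochberg adjusted p under 0.05, higher or lower, where 0.906% of all tested genes were called higher and 1.14% lower. With no adjustment, p was under 0.05 for 5 members: 3 members were higher (Acads, Acaa2 and Eci1) and 2 lower (Fabp2 and Acsl3), against 10.8% and 10.2% of all genes. Limma-voom called none, where it called 0.566% of all genes higher and 1.03% lower. DESeq2 called Fabp2 and Acsl3 lower (adjusted p = 0.0251 and 0.0419) and none higher, where it called 4.47% of all genes higher and 4.32% lower. Other scalings, no filter on low counts and a replicate block called no member. Of all genes, RLE scaling called 0.913% higher and 1.19% lower, upper-quartile scaling 0.984% and 1.08%, no filter 1.24% and 1.24%, and the block 1.08% and 1.47%. All TNBS libraries lay above all normal libraries for 4 members and below them for 3, where 15.3% and 14.8% of all tested genes did so. EdgeR's test called 6 of 12 absorptive colonocyte markers lower, with a median log2 fold change of -1.66 over the 12, of which 11 had a lower mean. Among those called was the water channel Aqp8 at 146 to 196 CPM in normal and 2.91 to 24.0 CPM in TNBS colon. Summed, the 12 markers were at 9210 to 11100 CPM in normal colon. In TNBS replicates 1, 2 and 3 they were at 3920, 4630 and 10400 CPM, the last inside the normal range. Their median shifts from the normal mean were -1.35, -1.87 and -1.51 on the log2 scale in the same order. In a whole tissue, fewer cells of a type and less RNA per cell cannot be told apart.

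The precision was enough to bound most members. For 23 of the 33, or 69.7%, the 95% interval of the fold lay wholly between 0.5 and 2, against 43.2% of all tested genes. Of the 35 members, 30 had at least 200 counts in every library. Fabp1 and Cpt1b did not pass the filter and were not tested.

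**Figure D1:**
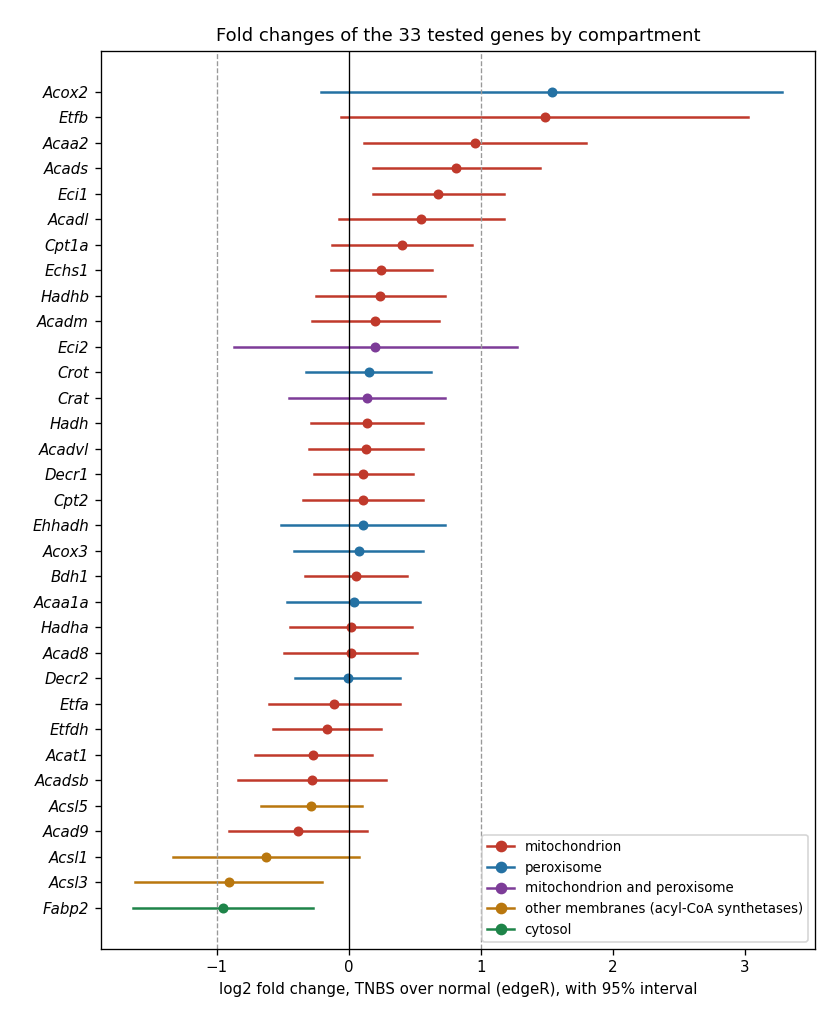
Log2 fold change of TNBS over normal colon for the 33 tested members, with points for the edgeR estimate and bars for its 95% interval, coloured by the compartment of the enzyme. Dashed lines mark 2-fold changes. Most estimates lie close to 0, with Fabp2 and Acsl3 at the low end (-0.95 and -0.91) and the widest intervals at the sparsely counted Acox2 and Etfb.

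Fabp2 and Acsl3 had the lowest estimates of the tested members. Fabp2, the intestinal fatty acid binding protein that carries fatty acids through the enterocyte cytosol, was the most abundant member per kilobase of exon, at 349.9 CPM per kilobase in normal colon. Its 3 normal libraries held 236, 349 and 428 CPM and its TNBS libraries 148, 130 and 246 CPM. The groups overlapped only through TNBS replicate 3, which lay just above normal replicate 1. The fold was 0.517, with a 95% interval of 0.322 to 0.830 (log2 fold change -0.95, SE 0.30, edgeR adjusted p = 0.133). Fabp2 was also set against the mean of the epithelial markers in the same library. Its group mean was then lower in TNBS colon by 0.89 on the log2 scale. The groups were barely apart, at -1.614 in normal replicate 1 and -1.634 in TNBS replicate 3. The 12 epithelial markers themselves had a median log2 fold change of -0.029, but ran from -1.17 to 0.82. None was called, while 3 were lower and 1 higher at an unadjusted edgeR p under 0.05. Values relative to them therefore rest on a mixed list. The absorptive colonocyte markers had a median log2 fold change of -1.66. The part of absorptive cells in the level of Fabp2 was not tested.

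The liver-type paralog Fabp1 was near the floor of detection. It had 8, 0 and 0 counts in the normal libraries and 0, 20 and 17 in the TNBS libraries, so only normal replicate 1 and TNBS replicates 2 and 3 had any. No fold is given for so few counts. TNBS replicates 2 and 3, the only TNBS libraries with Fabp1 counts, are those with high Hoxb6. Fabp6, the ileal relative that binds bile acids, was likewise at 12.1 and 5.34 CPM in these and at 0.0505 to 1.83 CPM in the other 4 libraries.

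Acsl1, Acsl3 and Acsl5, which couple long-chain fatty acids to coenzyme A, were the 3 members with every TNBS library below every normal one, as for 14.8% of all tested genes. Of their relatives outside the members, Acsl4 was also apart, at 23.8 to 28.5 and 12.7 to 20.4 CPM (adjusted p = 0.169). Acsl6 overlapped, at 3.58 to 5.15 and 2.39 to 3.86 CPM. Acsl3, an enzyme of the endoplasmic reticulum and lipid droplets, was at 263, 292 and 349 CPM in normal colon and at 216, 86.4 and 179 CPM in TNBS colon. TNBS replicate 2 was the lowest and TNBS replicate 1 the closest to normal. The fold was 0.532, with an interval of 0.326 to 0.868 (log2 fold change -0.91, SE 0.31, edgeR adjusted p = 0.154). Acsl1 was at 61.5 to 75.3 CPM in the normal and 22.8 to 56.4 CPM in the TNBS libraries (fold 0.647, adjusted p = 0.286). Acsl5, the synthetase most tied to the intestinal epithelium, was at 156 to 190 and 132 to 155 CPM (fold 0.822, adjusted p = 0.359). Relative to the epithelial markers, the group mean of Acsl3 shifted by -0.93 on the log2 scale. Its groups were then barely apart, at -1.508 in normal replicate 2 and -1.519 in TNBS replicate 1. Those of Acsl1 and Acsl5 overlapped. Acsl3 shares 3.59% of its 50-base stretches with Utp14b, which lies in the same locus.

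The window before the start of Fabp2 is printed because this gene has the lowest estimate. That of Cpt1a is printed because the gene encodes the enzyme of regulated entry. Its capitals mark the core motif of nuclear receptors, the class that includes the PPAR proteins known to act on this pathway. Both run from 250 bases before to 50 bases after the RefSeq start on build GRCm38.p6, Fabp2 at chr3:122894822-122895121 and Cpt1a at chr19:3323051-3323350, both on the plus strand.
Fabp2: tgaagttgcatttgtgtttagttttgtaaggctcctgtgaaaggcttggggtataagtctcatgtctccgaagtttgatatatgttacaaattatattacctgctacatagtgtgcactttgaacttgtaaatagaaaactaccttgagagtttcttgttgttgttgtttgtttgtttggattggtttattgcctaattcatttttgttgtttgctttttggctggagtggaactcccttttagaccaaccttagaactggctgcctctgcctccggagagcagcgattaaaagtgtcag
Cpt1a: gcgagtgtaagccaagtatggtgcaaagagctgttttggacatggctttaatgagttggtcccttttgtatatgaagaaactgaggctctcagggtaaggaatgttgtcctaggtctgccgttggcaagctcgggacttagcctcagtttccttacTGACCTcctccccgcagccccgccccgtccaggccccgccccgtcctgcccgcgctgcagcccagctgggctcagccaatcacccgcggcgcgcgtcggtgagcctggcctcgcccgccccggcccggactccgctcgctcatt
Of the 35 members 29 had at least 1 such RefSeq window, 32 windows in all. The Fabp2 window holds 38.7% G and C and 3 CG dinucleotides, where that of Fabp1 holds 45.0% and 3, the median over the members' windows was 60.5% and 17 and over all 32851 windows 52.7% and 7. The core motif AGGTCA, read on both strands, occurred in 5 of the 32 member windows (15.6%) and in 16.3% of all windows. The 5 belong to Acadm, Fabp1, Echs1, Acadvl and Cpt1a. The PPAR and RXR element, the core motif repeated in 1 direction with 1 base between, was found in 0 member windows and in 0.0396% of all. The HNF4 site CAAAGTCCA was in 0 member windows and 0.475% of all, and the ESRR site TCAAGGTCA, which also contains the core motif, in 0 and 0.423%. The NRF1 site was in 1 member window, that of Etfdh (3.12%), and in 0.971% of all. A match describes the letters of a window, not a site in use.

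Means of all 4 tested carnitine shuttle members were higher with TNBS (median log2 fold change 0.14), and none was called. Cpt1a, the outer membrane transferase that sets the rate of entry, was at 344, 292 and 262 CPM in the normal and 293, 394 and 502 CPM in the TNBS libraries. TNBS replicates 2 and 3 were above every normal library, while TNBS replicate 1 lay among them. Its fold was 1.33 with an interval of 0.917 to 1.91 (adjusted p = 0.348). Cpt2, which restores the acyl-CoA inside, was at 55.6 to 68.8 and 54.2 to 81.2 CPM. Crat, a transferase for short chains in both organelles, and the peroxisomal Crot, which readies shortened chains for export, had log2 fold changes of 0.14 and 0.15. The muscle isoform Cpt1b had 0 to 8 counts per library, and 81.4% of its exon bases lie under the same-strand gene Gm44502, so its counts are uncertain.

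The first dehydrogenation is split between enzymes by chain length. The straight-chain set, Acadvl for very long, Acadl for long, Acadm for medium and Acads for short chains, had log2 fold changes of 0.13, 0.55, 0.20 and 0.82. Acads, which acts on short chains such as butyrate, was at 86.7, 93.9 and 48.1 CPM in the normal and 102, 164 and 136 CPM in the TNBS libraries, and the groups did not overlap. Its fold was 1.76, with an interval of 1.14 to 2.73 (SE 0.28 on the log2 scale, edgeR adjusted p = 0.154). Without normal replicate 3 the log2 fold change of Acads was 0.57. Acadl was at 212, 190 and 234 CPM in the normal and 190, 416 and 325 CPM in the TNBS libraries. TNBS replicate 1 was just under the normal range and the other two above it (fold 1.46, interval 0.950 to 2.25, adjusted p = 0.288). Acadvl overlaps Dvl2 on the opposite strand over 42.9% of its exon bases, so its value is uncertain where counting ignored strand.

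Of the 3 branched-chain and atypical dehydrogenases 2 had a lower mean, and none was called. Acad9, known for its role in complex I assembly, was at 39.4, 31.9 and 50.5 CPM in the normal and 36.5, 28.1 and 28.6 CPM in the TNBS libraries (log2 fold change -0.38, adjusted p = 0.366). Of the 50-base stretches of Acad9, 13.0% also occur in other genes, mainly Gm43079. Acadsb, which takes the 2-methyl-branched intermediate of isoleucine, was at 68.7, 66.9 and 122 CPM in the normal and 76.5, 65.4 and 70.0 CPM in the TNBS libraries. Its log2 fold change of -0.28 rested on normal replicate 3, without which it was 0.061. Acad8, of valine breakdown, was at 16.8 to 23.9 and 19.3 to 21.4 CPM.

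**Figure D2:**
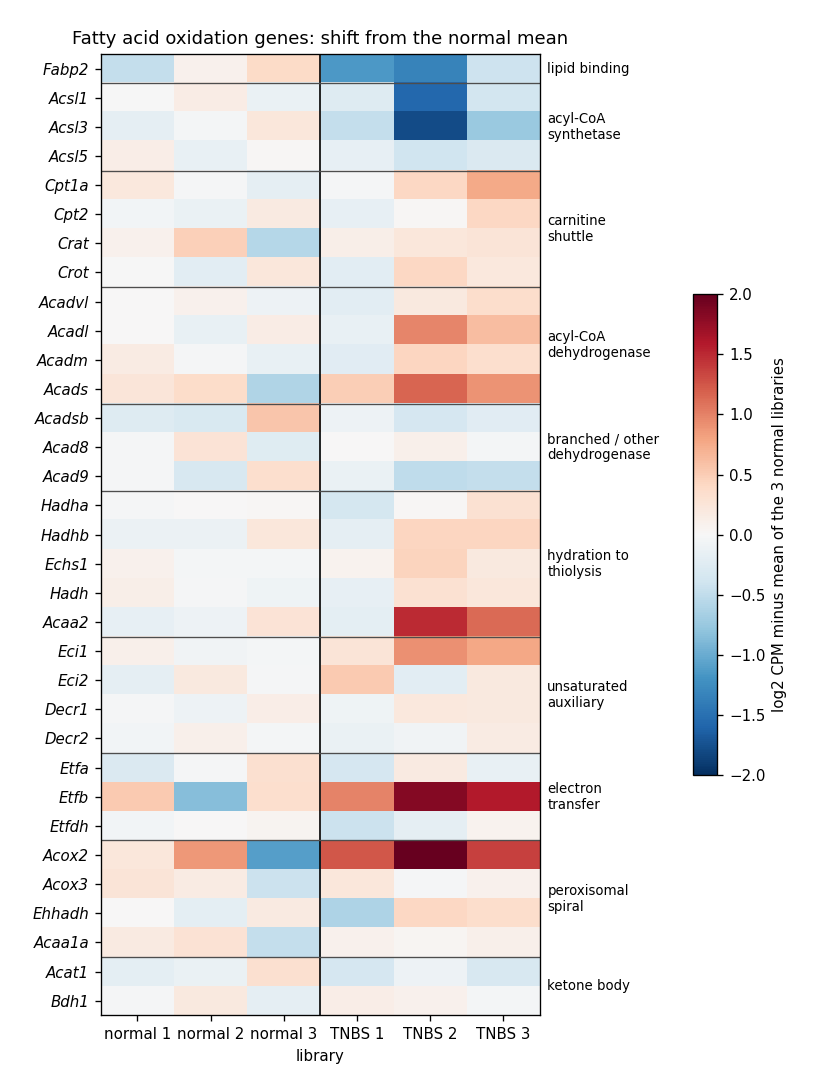
Log2 CPM of each tested member in each library minus the mean of the 3 normal libraries, on a colour scale from -2 (blue) to 2 (red), with genes in rows grouped by role. TNBS replicate 1 is close to the normal libraries over most rows, while TNBS replicates 2 and 3 are red at Acadl, Acads, Acaa2 and Eci1, and all TNBS libraries are blue at Fabp2 and the synthetases.

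The remaining steps of the mitochondrial spiral had 5 of 5 means higher, with a median log2 fold change of 0.24. Hadha and Hadhb form the trifunctional protein, which carries out the last 3 reactions on long chains. Hadha was at 307, 310.1 and 314 CPM in the normal and 244, 315 and 381 CPM in the TNBS libraries, so the normal libraries lay inside the TNBS range. The fold of Hadha was 1.01, with an interval of 0.735 to 1.39 (adjusted p = 0.973). Hadhb was at 169, 171 and 216 CPM in the normal and 163, 247 and 247 CPM in the TNBS libraries (fold 1.18, adjusted p = 0.552). Hadhb shares 19.7% of its 50-base stretches with other annotated genes, mainly Gm13910, so its level is uncertain. The ratio of Hadha to Hadhb CPM ran from 1.45 to 1.82 in the normal and 1.28 to 1.54 in the TNBS libraries, and the ranges overlapped.

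These genes start back to back on opposite strands of chromosome 5, Hadha at 30154980 and Hadhb at 30155253 in RefSeq. The window of Hadhb, chr5:30155003-30155302 on the plus strand of GRCm38.p6, is printed because 228 of its bases, in capitals, also lie in the window of Hadha.
Hadhb: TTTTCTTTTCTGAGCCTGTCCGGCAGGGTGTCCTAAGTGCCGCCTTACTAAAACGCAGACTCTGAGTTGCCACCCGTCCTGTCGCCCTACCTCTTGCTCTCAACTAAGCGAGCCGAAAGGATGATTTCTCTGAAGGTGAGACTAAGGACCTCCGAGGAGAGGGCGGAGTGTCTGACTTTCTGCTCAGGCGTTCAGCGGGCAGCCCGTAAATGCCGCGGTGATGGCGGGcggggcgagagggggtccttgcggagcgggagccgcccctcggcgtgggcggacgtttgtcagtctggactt
Both subunit genes had their lowest CPM in TNBS replicate 1.

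Acaa2, the mitochondrial thiolase that closes each round, had the most uneven TNBS libraries. It was at 52.4, 54.5 and 71.1 CPM in the normal and at 51.0, 166 and 128 CPM in the TNBS libraries. TNBS replicate 1 was below every normal library and the other two far above. The fold was 1.94, with an interval of 1.08 to 3.48 (log2 fold change 0.96, SE 0.37, adjusted p = 0.193). Echs1, the short-chain hydratase, was at 97.2 to 106 and 105 to 137 CPM. Relative to the epithelial markers, its group mean was higher in TNBS colon by 0.31 on the log2 scale. The groups were then barely apart, at -2.768 in normal replicate 1 and -2.738 in TNBS replicate 3. Hadh, the short-chain hydroxyacyl-CoA dehydrogenase, had a log2 fold change of 0.14.

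Auxiliary enzymes handle the double bonds of unsaturated fatty acids. Eci1, the mitochondrial isomerase, was at 32.3, 28.7 and 29.1 CPM in the normal and 35.9, 56.8 and 51.5 CPM in the TNBS libraries. All TNBS values lay above all normal ones, with TNBS replicate 1 the lowest of them. The fold was 1.60, with an interval of 1.13 to 2.26 (log2 fold change 0.68, SE 0.22, edgeR adjusted p = 0.140). Decr1, the mitochondrial dienoyl-CoA reductase, was at 89.4, 84.8 and 99.1 CPM in the normal and 85.8, 105 and 104 CPM in the TNBS libraries, and the groups overlapped. Its peroxisomal counterpart Decr2 was at 45.8 to 51.3 and 43.7 to 53.6 CPM, with an interval of the fold from 0.753 to 1.31. Eci2, found in both organelles, was sparse at 36 to 87 counts per library and shares 6.80% of its 50-base stretches, mainly with Eci3.

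The electron transfer flavoprotein passes electrons from the dehydrogenases to the respiratory chain. Its alpha subunit gene Etfa was at 161, 193 and 244 CPM in the normal and 155, 222 and 177 CPM in the TNBS libraries (log2 fold change -0.11, adjusted p = 0.802). Etfdh, the membrane oxidoreductase that accepts these electrons, was at 142 to 154 and 110 to 156 CPM. The beta subunit gene Etfb had only 28, 9 and 21 counts in the normal and 38, 49 and 52 in the TNBS libraries, and the groups did not overlap. Its log2 fold change was 1.48 (SE 0.68, edgeR adjusted p = 0.253). Etfb lies for 58.2% of its exon bases under the same-strand gene Gm45233, so its counts are uncertain.

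**Figure D3:**
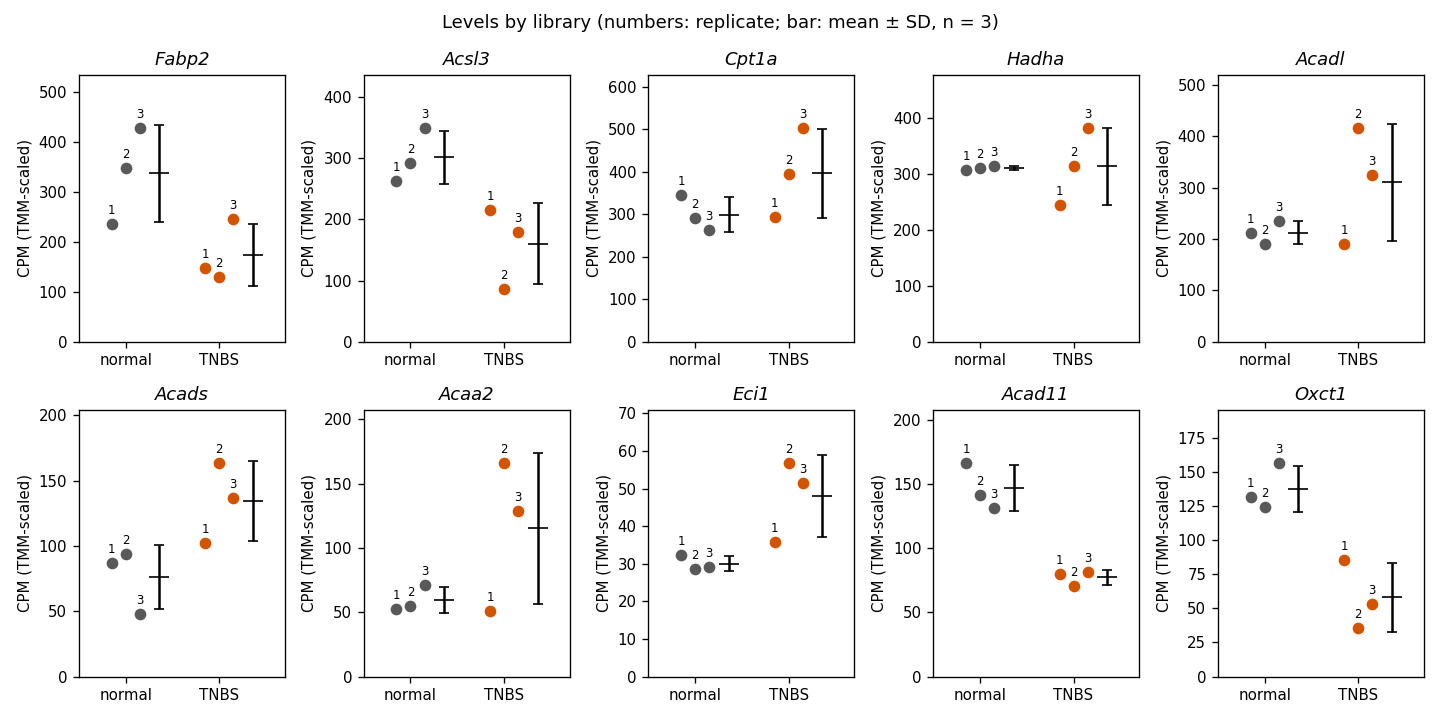
TMM-scaled CPM of 8 members and of the further pathway genes Acad11 and Oxct1 in each library, on linear axes from 0. Points carry the replicate number and bars give the mean ± SD of 3 libraries. For Acadl and Acaa2 TNBS replicate 1 sits at the normal level with TNBS replicates 2 and 3 above it, while Fabp2, Acsl3, Acad11 and Oxct1 have lower means in TNBS colon.

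Peroxisomal and mitochondrial enzymes were set side by side. Of the 6 tested peroxisomal members 5 had a higher mean, with a median log2 fold change of 0.090, and of the 21 tested mitochondrial members 16, with a median of 0.13. None of either compartment was called. Mean log2 CPM of the mitochondrial members exceeded that of the peroxisomal members by 1.61, 1.46 and 2.03 in the normal libraries. In the TNBS libraries the difference was 1.55, 1.60 and 1.65, inside the normal range. The top of that range rests on normal replicate 3 alone, and TNBS replicate 3 lay above normal replicates 1 and 2. Among the 6 peroxisomal members, Acox2 had only 5 counts in normal replicate 3. Ehhadh, the bifunctional enzyme that joins the hydration and dehydrogenation steps in peroxisomes, was at 55.0, 47.9 and 61.8 CPM in the normal and 35.4, 72.5 and 69.4 CPM in the TNBS libraries. TNBS replicate 1 was the lowest of all 6 and the other two the highest (fold 1.08, interval 0.700 to 1.66, adjusted p = 0.848). Acox3, an oxidase of branched chains, was at 37.7 to 60.7 and 49.9 to 59.4 CPM, and the thiolase gene Acaa1a at 35.1 to 59.7 and 50.1 to 52.4 CPM. Acaa1a shares 12.9% of its 50-base stretches, mainly with Acaa1b, and its value is uncertain. Acox2, an oxidase of bile acid side chains and branched chains that is mainly a liver enzyme, had 18, 28 and 5 counts in the normal and 37, 50 and 36 in the TNBS libraries, without overlap. Its log2 fold change was 1.54 (SE 0.77, edgeR adjusted p = 0.289).

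**Figure D4:**
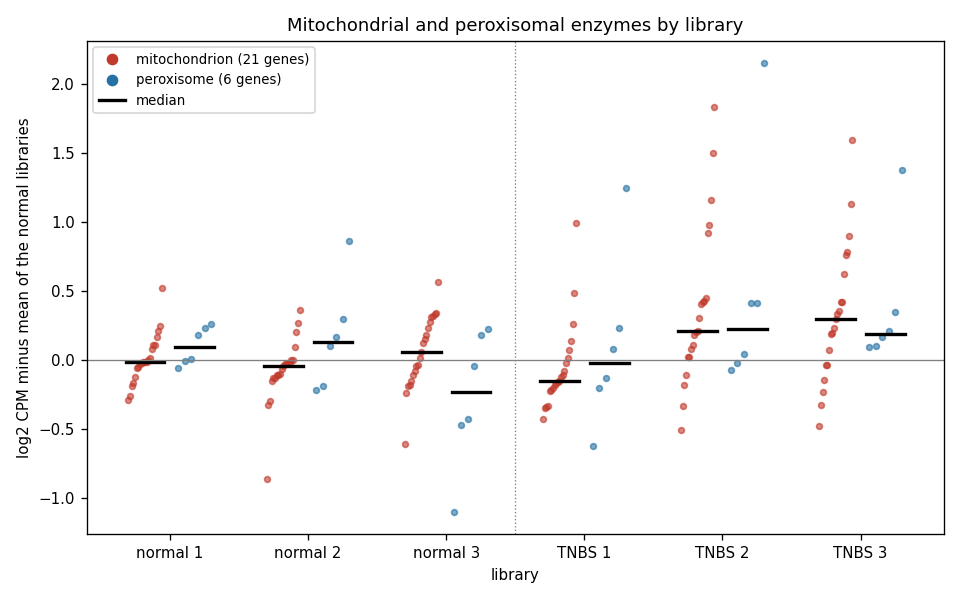
Shift of each mitochondrial (21, red) and peroxisomal (6, blue) member from the mean of the normal libraries, in log2 CPM, with the median as a black line. For TNBS replicates 1, 2 and 3 the mitochondrial medians are -0.15, 0.21 and 0.30 and the peroxisomal medians -0.025, 0.23 and 0.19.

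Neither ketone body member was called. Acat1, which joins acetyl-CoA units on the way to ketone bodies and splits them on the way back, was at 188, 195 and 267 CPM in the normal and 170, 199 and 171 CPM in the TNBS libraries. Its fold was 0.830, with an interval of 0.611 to 1.13 (adjusted p = 0.457). Bdh1, which interconverts acetoacetate and 3-hydroxybutyrate, was at 117 to 154 and 130 to 146 CPM (fold 1.04, interval 0.792 to 1.36).

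The TNBS libraries differed among themselves over the members. TNBS replicates 2 and 3 both exceeded TNBS replicate 1 for 66.7% of the 33 tested members and 81.0% of the 21 mitochondrial ones, against 38.2% of all tested genes. Against the normal group, TNBS replicate 1 alone had 16 of 21 mitochondrial members lower, with a median log2 fold change of -0.16. TNBS replicate 1 was below the normal mean for 50.3% of all tested genes. Without TNBS replicate 1, the mitochondrial median was 0.26 and 3 members were called higher and 0 lower, against 3.67% and 3.97% of all genes. These were Acaa2 (log2 fold change 1.31, edgeR adjusted p = 0.0116), Eci1 (0.85, adjusted p = 0.0434) and Acadl (0.80, adjusted p = 0.0499). With TNBS replicate 2 as the only one, Acaa2 was called higher (1.48, adjusted p = 0.0245), where 2.26% of all genes were. Acsl3 and Acsl1 were then called lower (-1.81 and -1.58, adjusted p = 0.0213 and 0.0330), where 3.21% of all genes were. These fits take the spread of a single TNBS library from the normal group. Leaving out any of the other 5 libraries called no member, where the share of all genes called ran from 0.0483% to 0.298% higher and from 0.0759% to 0.353% lower. The libraries that are high in these members are also those high in Hoxb6 and in mitochondrially encoded counts, as given above. Cell type markers also differed among the TNBS libraries, though those of smooth muscle did not set TNBS replicate 1 apart from the others. Over TNBS replicates 1, 2 and 3, summed fibroblast markers were at 3940, 949 and 1850 CPM (2290 to 2510 in normal colon) and smooth muscle markers at 6680, 4380 and 7140 CPM (8040 to 11000 in normal colon). Neutrophil markers, of which 5 of 6 were called higher, summed to 84.8, 331 and 130.0 CPM, against 2.62 to 4.12 in normal colon. The part of these differences in the members' values was not tested.

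Of 123 tested genes of lists drawn up beside the members, edgeR called 1 higher and 2 lower, against 0.906% and 1.14% of all genes. DESeq2 called 12 higher and 9 lower of 129, against 4.47% and 4.32% of all, and limma-voom 0 and 2. Without TNBS replicate 1 edgeR called 12 higher and 8 lower of 125, against 3.67% and 3.97% of all. Acot1, a cytosolic thioesterase that releases free fatty acids from acyl-CoA, was at 1.13, 1.72 and 1.82 CPM in the normal and 4.32, 12.5 and 9.44 CPM in the TNBS libraries. It rose by 2.48 on the log2 scale (SE 0.50, edgeR adjusted p = 0.0444), but shares 19.2% of its 50-base stretches, mainly with Acot2, so its counts are uncertain. Acad11, a further acyl-CoA dehydrogenase, fell from 166, 142 and 132 CPM to 79.8, 70.9 and 81.5 CPM (log2 fold change -0.92, SE 0.17, adjusted p = 0.0360). Both calls were lost in each fit that left out 1 library other than TNBS replicate 1, at adjusted p of 0.0574 to 0.173, and that of Acot1 also with limma-voom (0.107). These were edgeR's only calls among 18 further mitochondrial and related enzymes. Esrrg, an orphan nuclear receptor of oxidative genes, was the call among 20 regulators, falling from 23.8, 11.2 and 23.3 CPM to 2.27, 2.13 and 1.28 CPM (log2 fold change -3.36, SE 0.42, adjusted p = 0.0123). Without normal replicate 3 the adjusted p of Esrrg was 0.0511.

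EdgeR and limma-voom made no call among 22 further genes of uptake and activation, 10 of the carnitine carrier and control of entry, 17 further peroxisomal enzymes, 7 further ketone body genes, 14 genes of peroxisome assembly and 15 genes of mitochondrial mass. With no adjustment, p was under 0.05 for 5 higher and 3 lower genes of uptake, 1 and 1 of carnitine entry, 2 and 1 peroxisomal, 0 and 3 of ketone bodies, 2 and 0 of peroxisome assembly, and 3 and 1 of mitochondrial mass. DESeq2 called Fabp4, Fabp5, Slc27a1, Prkab1, Pipox, Pex11a, Phb2 and Slc25a4 of these lists higher and Acsm3, Acaca, Hao2, Oxct1 and Slc16a1 lower. The adjusted p-values that follow are edgeR's. Among the genes with the smallest p were Slc27a1, a fatty acid transporter, at 11.9 to 18.2 CPM in the normal and 25.9 to 36.2 CPM in the TNBS libraries (adjusted p = 0.0857), and Fabp4, at 25.4 to 70.4 and 67.6 to 313 CPM (adjusted p = 0.0933). Fabp4 is expressed in fat cells and in endothelium. Of the endothelial markers 2 of 8 were called higher, and their summed level was 212 to 239 CPM in the normal and 376 to 620 CPM in the TNBS libraries. The summed adipocyte markers ran from 22.4 to 69.5 and from 22.4 to 99.0 CPM, with none of 6 called. The part of either cell type was not tested. Prkab1, a subunit of the energy sensor AMPK, was at 84.6 to 105 and 119 to 337 CPM (adjusted p = 0.0959). Acaca, whose product malonyl-CoA blocks carnitine entry, was at 121 to 141 and 58.9 to 105 CPM (adjusted p = 0.124). Hao2, a peroxisomal hydroxy acid oxidase, was at 357 to 492 and 165 to 266 CPM (adjusted p = 0.0707). Pex11a, which multiplies peroxisomes, was at 21.6 to 30.1 and 30.7 to 88.4 CPM (adjusted p = 0.111).

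Of the 7 further ketone body genes tested, 3 had a higher and 4 a lower mean, and those with the smallest p had lower ones. Over the 7 genes, log2 fold changes ran from -1.24 to 1.91, with a median of -0.088. The estimate furthest from 0 was thus a higher one, but no higher gene had an unadjusted edgeR p under 0.05. Oxct1, which tissues need to use ketone bodies, was at 132, 125 and 157 CPM in the normal and 85.2, 35.8 and 53.2 CPM in the TNBS libraries. The groups did not overlap, and TNBS replicate 1 was the closest to normal. The log2 fold change of Oxct1 was -1.24 (SE 0.29, edgeR adjusted p = 0.0704), and without TNBS replicate 1 it was -1.63 (adjusted p = 0.00793). DESeq2 gave Oxct1 an adjusted p of 0.00193, and edgeR with no filter on low counts gave 0.0456. Of the exon bases of Oxct1, 12.6% lie opposite the transcript BC037032. Slc16a1, a transporter of ketone bodies, lactate and butyrate, was at 487, 432 and 452 CPM in the normal and 336, 190 and 300.3 CPM in the TNBS libraries, without overlap. Its log2 fold change was -0.73 (SE 0.24, edgeR adjusted p = 0.138, DESeq2 adjusted p = 0.0365). Aacs, which activates acetoacetate in the cytosol for lipid synthesis, was at 78.8 to 108 and 35.6 to 84.4 CPM (adjusted p = 0.202). Without TNBS replicate 1 the log2 fold change of Aacs was -1.24 (adjusted p = 0.0165).

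A few further genes were picked after their values were seen. In all but Ppara, TNBS replicates 2 and 3 were both above TNBS replicate 1, as for 38.2% of all tested genes. Because of how they were picked, this shared order is no evidence of a pattern. A link between these genes and Ppara was not tested. Pdk4, which restrains glucose oxidation when fat is burnt, ran from 8.99 to 10.6 CPM in normal colon and was at 8.00, 91.2 and 65.2 CPM in TNBS replicates 1, 2 and 3 (adjusted p = 0.101). Without TNBS replicate 1 edgeR called Pdk4 higher, as it did 3.67% of all genes. Angptl4, a secreted inhibitor of lipoprotein lipase, was at 0.0907 to 2.27 CPM in the normal and 8.13, 27.8 and 22.1 CPM in the TNBS libraries (adjusted p = 0.0667). DESeq2 called Angptl4 higher, as did edgeR with no filter, without normal replicate 1 or without TNBS replicate 1. Limma-voom, other scalings, the replicate block and the remaining fits with 1 library left out did not. The carnitine carrier gene Slc25a20 was at 84.4 to 109 CPM in the normal and 57.3, 152 and 167 CPM in the TNBS libraries (adjusted p = 0.542). Ppara, a receptor known to drive Cpt1a, Pdk4 and Acot1 in liver, was at 12.4 to 18.1 CPM in the normal and 10.4, 8.79 and 23.5 CPM in the TNBS libraries.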

How the data were processed

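Total RNA of 6 colon samples was sequenced with GenSeq low input and SMARTER mRNA-Seq kits, per the labels' protocols. CASAVA 1.8, HISAT2 and mm10 are listed, per the submitters' processing notes. For the counting tool, annotation and strand setting the entry is: not given in the sources used here. What the authors deposited is a table of raw whole-number counts per gene, per the file headers, used here as they stand; 6 further columns of log2 values were not.

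Groups came from the sample labels, 3 libraries each. Nothing says that replicates came from separate animals, and p-values therefore cover only sample-to-sample spread. In the normal group that spread may be technical. In the TNBS group Y-linked transcripts stood at 0.697%, 103% and 38.2% of the normal mean, further apart than repeats of the same RNA would be. Genes were filtered with filterByExpr (minimum count 10, minimum total count 15; 14126 of 16906 kept), scaled with TMM and tested with edgeR 4.0.16 (glmQLFit, glmQLFTest, two-sided, R 4.3.3), adjusted over all genes. The standard error is the log2 fold change over the square root of F. Log2 CPM used a prior count of 2. Alternatives were DESeq2 1.42.0, limma-voom 3.58.1, other scalings, no filter, a replicate block and libraries left out. The steps were also run on counts simulated independently for each gene, so without differences among TNBS libraries that many genes share. The outcome of that run is not used here as support.

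Identifiers matched GENCODE vM21 (GRCm38, the build mm10) for all 35 members, which gave exon lengths, overlaps and shared 50-base stretches; promoters are from RefSeq GRCm38.p6. Members, lists and roles were chosen with earlier results of these data known. Per-library values are given for members with an unadjusted p under 0.05 and, in each role, for the most abundant member and the one furthest from 0; from other lists, for called genes or up to 3 with the smallest p. A few further pathway genes are not reported here.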

Additional observations from a re-analysis of the deposited data

How the results depend on the processing

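No member was called, higher or lower, under RLE or upper-quartile scaling, limma-voom, no filter on low counts or a replicate block. DESeq2 called 2 members lower, and 668 higher and 645 lower genes over all. The count of members called higher ran from 0 to 3 with libraries left out in turn, and that called lower stayed at 0. All genes called higher ran from 7 to 532 and lower from 11 to 576, with the highest counts without TNBS replicate 1 and the lowest without normal replicate 2. No filter gave 209 higher genes and limma-voom 80. With only TNBS replicate 1 there were 30 higher and 33 lower genes, and with only TNBS replicate 2 there were 338 and 480, of them 1 and 2 members. The replicate block gave 153 higher and 207 lower genes, and the adjusted p of Acad11 was then 0.0528, that of Fabp4 0.0293 and that of Oxct1 0.0414. Same-numbered libraries did not deviate together (correlations 0.00547, 0.0149 and 0.0354), and not every library correlated best with its own number, so the numbers were not treated as pairs.

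Of the members' log2 fold changes, 416 of the values under alternatives kept direction and side of the threshold, 8 passed it and 38 changed sign. With only TNBS replicate 1 the sign changed for Acaa2 (-0.21), Acad8 (-0.0003), Acadl (-0.16), Acadm (-0.22), Acadvl (-0.22), Cpt1a (-0.029), Cpt2 (-0.17), Crot (-0.21), Decr1 (-0.083), Ehhadh (-0.63), Hadh (-0.16), Hadha (-0.34) and Hadhb (-0.19). With only TNBS replicate 2 it changed for Acaa1a (-0.0031), Acox3 (-0.056), Eci2 (-0.24) and Etfa (0.15). Hadha was at -0.0072 with limma-voom and -0.0080 with the block, and Decr2 at 0.022 with upper-quartile scaling. Over single left-out libraries Acaa1a ran from -0.16 to 0.20, Acad8 from -0.098 to 0.17, Acadsb from -0.41 to 0.061, Acox3 from -0.11 to 0.21, Bdh1 from -0.036 to 0.17, Crat from -0.097 to 0.42, Decr2 from -0.10 to 0.060, Eci2 from -0.0025 to 0.38, Ehhadh from -0.064 to 0.37, Etfa from -0.26 to 0.062, Cpt2 from -0.073 to 0.23 and Hadha from -0.15 to 0.17. Leaving out normal replicate 3 changed the sign for 7 members, each TNBS library for 3, and normal replicate 1 or 2 for 1. The cause was not tested. Values of Fabp1, Cpt1b, Eci2, Etfb and Acox2 are limited by counts.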
